A study of Mus musculus with 16 samples.

Results

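The RANKL response of bone marrow-derived macrophages (BMMs) of C57BL/6 wild-type (WT) female mice was measured by RNA-seq in 4 of the 16 libraries of the study, all 4 that the labels give to this strain. The sets compared were 2 libraries of WT cells kept in M-CSF and 2 libraries of WT cells that received M-CSF with RANKL for 3 days. M-CSF came from L929 cell conditioned medium at a final 23.3 ng/ml in every culture, and the labels give RANKL at 40 ng/ml, while the paper states a somewhat higher dose. The same experiment held 4 libraries of cells of IRF7 knockout mice, and a second experiment held 4 libraries of control cells that carry LysM-Cre, a Cre gene driven by the lysozyme M promoter of myeloid cells, and 4 of SREBP2-deficient cells. The 2 libraries of a group are biological replicates in the labels. Nothing in the sources used here says that they came from separate mice, and the age of the mice is not given there for the sequenced cells, so p-values measure only the spread between these libraries. The cells were bulk cultures, in which fewer cells of a type and less RNA per cell cannot be told apart.

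RANKL is the cytokine that turns macrophage precursors into osteoclasts, the multinucleated cells that dissolve bone. It binds RANK on the precursor and acts through TRAF6, NF-kappaB, AP-1 and, with calcium signals from ITAM receptors, through NFATc1, the leading transcription factor of the lineage. The mature cell seals off a patch of bone with a ring of podosomes, acidifies it with a proton pump and digests it with cathepsin K and other proteases.

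The libraries held between 8178505 and 12746916 counts, and the lowest of them was RANKL replicate 1. At these totals 1 count is 0.0765 to 0.128 CPM, the unit of counts relative to library size. All levels below are CPM after TMM scaling, given for replicate 1 and then replicate 2 of a group. Irf7 levels in the 4 IRF7-deficient libraries lay between 0.325 and 2.11 CPM and in the WT libraries between 43.3 and 80.8 CPM, as their labels require. The tests covered 10788 genes, those of 22001 that passed the authors' filter. Each kept gene had a mean of at least 2.83 CPM in 1 or more of the 4 groups of the IRF7 experiment, WT and IRF7-deficient. A gene that passed this filter only through the group in which it was high could hardly fail to differ. This applies to many of the genes below that were at 0, or under this level, in 1 group.

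The transcriptome of the WT cells changed widely over 3 days of RANKL. edgeR's quasi-likelihood test called 5118 of the 10788 genes (47.4%) at a Benjamini-Hochberg adjusted p under 0.05, of which 2688 were higher (24.9% of tested genes) and 2430 lower (22.5%). With a change over 2-fold as a second condition, 1478 were higher (13.7%) and 1235 lower (11.4%), and 405 rose and 223 fell by over 8-fold. The libraries of the groups did not overlap for 8127 genes (75.3%). The median log2 fold change over all tested genes was 0.0066 and 90% of the values lay between -1.93 and 2.41, with a median standard error of 0.17. Without 1 library the calls numbered between 2046 and 2377 higher and between 1841 and 2073 lower, and no called gene was called in the opposite direction in any of these fits. These shares are the background for the counts of gene groups below.

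**Figure D1:**
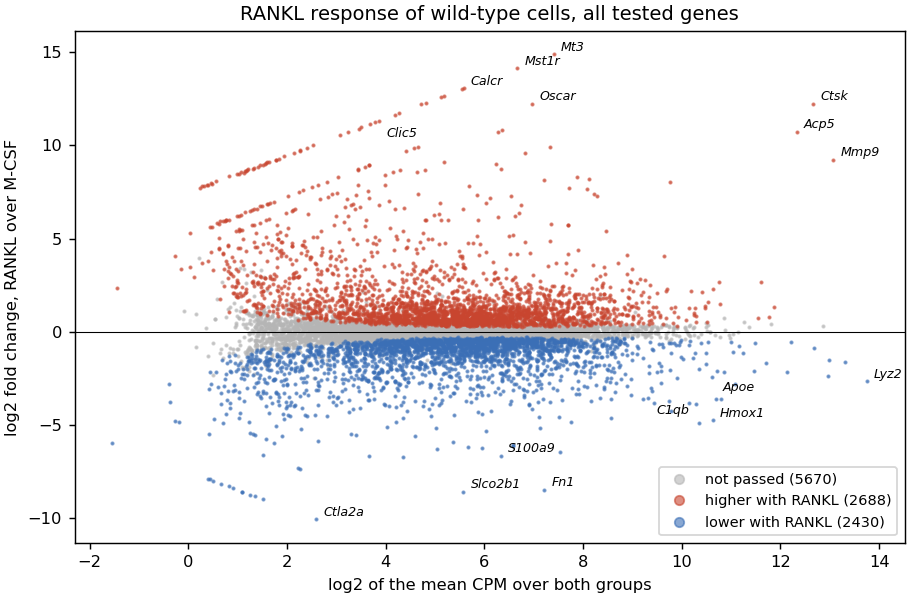
Log2 fold change of RANKL over M-CSF in WT cells against the log2 of the mean CPM over both groups, for each of the 10788 tested genes. The 2688 genes called higher are red, the 2430 called lower are blue, and the slanted rows of points at low levels are genes with 0 or very few counts in 1 group. Ctsk, Acp5 and Mmp9 stand out by a change over 9 log2 units at a high level.

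The largest rises were of genes that the M-CSF libraries did not show at all. Mt3, a metal-binding metallothionein best known from the brain, had no count with M-CSF and 424 and 255 CPM with RANKL. Taking the floor as 3 counts over the group, it was at least 2810.3-fold higher (edgeR adjusted p = 3.8e-05). Mst1r, the receptor tyrosine kinase RON, had 209 and 196 CPM, at least 1679.8-fold higher (edgeR adjusted p = 2.0e-06). Calcr, the calcitonin receptor through which calcitonin stops resorption, had 55.6 and 136 CPM, at least 792-fold higher (edgeR adjusted p = 0.0012). Its level was higher in RANKL replicate 2, whereas those of Mt3 and Mst1r were higher in replicate 1.

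Of the 15 genes with the largest rise among those with a mean of at least 10 CPM in the higher group, clone and predicted gene names left out, 13 had 0 counts in both M-CSF libraries. Among them were the tetraspanin Tspan7 (129 and 58.7 CPM with RANKL), the steroid dehydrogenase Akr1c18 (71.1 and 73.1 CPM) and the metalloreductase Steap4 (53.2 and 52.5 CPM). Lif, a cytokine that osteoclasts can send to bone-forming cells, had 52.7 and 19.8 CPM with RANKL. The urea transporter Slc14a2, the mesothelin gene Msln and the serpin Serpind1 were in the same set, with bounds of at least 187, 318 and 228-fold. Clic5, a chloride channel-like protein, showed a wide spread, with 51.5 and 6.89 CPM in the RANKL libraries (edgeR adjusted p = 0.018, and 0.072 or 0.07 without M-CSF replicate 1 or 2). Over the group it was at least 242-fold higher.

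At the other end, the 15 genes with the largest fall by the same rule included genes of macrophages and of neutrophils. Slco2b1, an organic anion transporter of macrophages, fell from 103 and 86.8 CPM with M-CSF to 0.128 and 0.306 CPM with RANKL, by 8.57 on the log2 scale (standard error 0.33, edgeR adjusted p = 4.3e-06). Fn1, which encodes fibronectin, fell from 427 and 165 to 1.28 and 0.536 CPM (edgeR adjusted p = 9.2e-05). F13a1, the A subunit of coagulation factor XIII, fell from 407 and 326 to 6.65 and 2.30 CPM (edgeR adjusted p = 3.2e-05). The cyclin gene Ccnd2, the chemokine Ccl7, the Fc receptor-like gene Fcrls, the translational repressor Nanos1 and Ch25h, which makes 25-hydroxycholesterol, were in this set as well, with log2 fold changes of -6.65, -6.15, -6.09, -6.22 and -5.58. Ctla2a, a cathepsin L inhibitor gene with a closely related neighbour whose reads may be shared, had 13.5 and 10.6 CPM with M-CSF and no count with RANKL, at least 78.6-fold lower. Of the 15 genes with the largest fall, 6 (S100a8, S100a9, Lcn2, Ltf, Ngp and Camp) are granule or calcium-binding protein genes of neutrophils, which are taken up with the markers of other cells further on.

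Genes were called switched on where they passed the test with both M-CSF libraries under 1 CPM and both RANKL libraries over 10 CPM. There were 76 such genes, and 8 were switched off by the reverse rule. The switched-on set held Oscar, Car2, Ocstamp, Siglec15 and Cd200 of the lists below, next to Rufy4, an adaptor of autophagy and lysosome positioning, with 0 and 0.163 CPM before and 155 and 153 CPM after RANKL. Besides Ctla2a, Slco2b1, Lcn2 and Ccnd2, the switched-off set held the receptor gene Trem1, the ribonuclease gene Ang, the filament gene Nes and the progenitor marker Cd34.

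The defining markers of osteoclasts were checked first. Of 12, 11 rose and none fell, and Tnfrsf11a, which encodes RANK itself, did not pass the test with 239 and 186 CPM before and 298 and 268 CPM after RANKL (edgeR adjusted p = 0.1, and 0.0078 with the replicate number as a block). The median log2 fold change of the 12 was 9.57. Ctsk (mm10 chromosome 3, 95499256 to 95509362) had 3.88 and 1.47 CPM with M-CSF and 18742 and 7166 CPM with RANKL, which is a rise of 12.23 on the log2 scale (standard error 0.86, edgeR adjusted p = 3.2e-05). Acp5 (mm10 chromosome 9, 22126727 to 22135711), the tartrate-resistant acid phosphatase by which osteoclasts are stained, rose from 8.56 and 3.43 to 12544 and 8030.4 CPM, by 10.74 on the log2 scale (standard error 0.64, edgeR adjusted p = 1.7e-05). Mmp9 (mm10 chromosome 2, 164940780 to 164955850), a gelatinase, rose from 21.96 and 35.6 to 21136 and 13255 CPM (log2 fold change 9.22, edgeR adjusted p = 1.1e-05). Ctsk and Mmp9 were higher in RANKL replicate 1, as were 9 of the 12 markers. None of the 12 overlapped between the groups, and neither did 75.3% of all tested genes.

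Oscar, the osteoclast-associated receptor that pairs with an ITAM adaptor, had 1 count with M-CSF in all (0.0793 and 0 CPM) and 317 and 184 CPM with RANKL. Nfatc1, which was already present in macrophages, rose from 59.8 and 53.1 to 793 and 474 CPM (log2 fold change 3.49, edgeR adjusted p = 6.3e-05). Itgb3, the beta subunit of the vitronectin receptor, rose from 7.77 and 7.44 to 317 and 490.4 CPM (log2 fold change 5.73, edgeR adjusted p = 0.0001), with the higher level in replicate 2. Markers of macrophages moved the other way. Of 10, 7 fell, and Fcgr1, the high-affinity IgG receptor, fell most, from 308 and 238 to 7.92 and 7.35 CPM. Adgre1, known as F4/80, fell from 1431 and 1342 to 291 and 386 CPM. Lyz2, the macrophage lysozyme, fell from 27484 and 20049 to 3849 and 3754 CPM, Csf1r, the M-CSF receptor, from 3159.6 and 2639.5 to 1764 and 1645 CPM, and Cd14, Itgam and Mertk by 2.24, 1.03 and 2.66 on the log2 scale. Spi1, which encodes PU.1 and serves both lineages, rose by 0.97, and Cd68 and Ptprc did not pass (0.49 and 0.27). With the replicate number as a block Cd68 passed (edgeR adjusted p = 0.04). Macrophage transcripts were thus lower but present in the RANKL libraries.

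**Figure D2:**
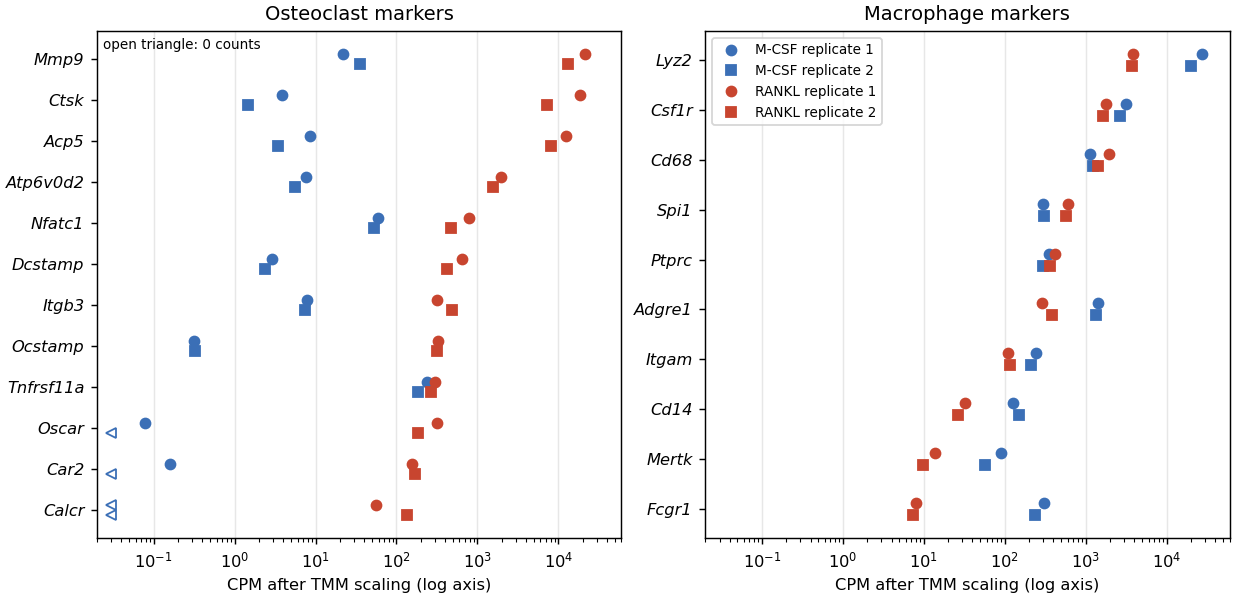
CPM after TMM scaling on a log axis, for 12 osteoclast markers (left) and 10 macrophage markers (right), with each WT library as a point: blue for M-CSF, red for RANKL, circles for replicate 1, squares for replicate 2, and open triangles for 0 counts. All osteoclast markers but Tnfrsf11a are far to the right with RANKL, while Cd68 and Ptprc hardly move.

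Promoter sequences from RefSeq on GRCm38.p6, 300 bases around a transcription start, are shown for osteoclast markers that moved together, because NFATc1 acts on such genes. Of 6 genes looked up (Acp5, Ctsk, Oscar, Dcstamp, Atp6v0d2 and Mmp9), the first 3 had windows, and the letters TGGAAA, the core that NFAT proteins bind, or TTTCCA on the other strand, are in capitals.
Ctsk (chr3:95498960-95499259, plus strand): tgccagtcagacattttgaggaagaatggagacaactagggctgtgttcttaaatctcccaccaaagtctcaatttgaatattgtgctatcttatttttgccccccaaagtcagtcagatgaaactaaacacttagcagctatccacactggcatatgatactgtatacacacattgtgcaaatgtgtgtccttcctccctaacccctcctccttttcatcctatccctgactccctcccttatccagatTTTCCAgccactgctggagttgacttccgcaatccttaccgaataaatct
Oscar (chr7:3616108-3616407, minus strand): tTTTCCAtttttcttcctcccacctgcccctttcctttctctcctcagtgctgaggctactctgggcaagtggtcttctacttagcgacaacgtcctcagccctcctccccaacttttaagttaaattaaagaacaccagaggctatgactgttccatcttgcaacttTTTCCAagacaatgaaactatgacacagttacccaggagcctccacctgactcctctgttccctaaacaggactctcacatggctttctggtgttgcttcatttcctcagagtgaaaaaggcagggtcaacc
Acp5 (chr9:22130549-22130848, minus strand, 1 of 3 starts): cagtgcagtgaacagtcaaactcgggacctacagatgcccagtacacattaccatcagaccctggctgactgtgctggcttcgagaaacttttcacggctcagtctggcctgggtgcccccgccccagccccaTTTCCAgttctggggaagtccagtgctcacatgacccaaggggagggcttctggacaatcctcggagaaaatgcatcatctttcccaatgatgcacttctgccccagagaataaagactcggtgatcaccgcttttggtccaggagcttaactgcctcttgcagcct
Counted from 1 at the 5′ end of each window, the match lies at bases 251 to 256 in Ctsk, 2 to 7 and 169 to 174 in Oscar, and 134 to 139 in Acp5, whose other 2 windows hold none. Such a match is common: on either strand it was in 16.4% of the 10938 windows of tested genes, in 17.4% of those of genes higher by over 2-fold and in 18.3% of those lower by over 2-fold. The AP-1 heptamer TGANTCA was in 7.46% of the windows of higher genes and 7.39% of those of lower genes, against 5.1% in all. The E-box CACGTG of MITF and its relatives was in 8.68%, 8.85% and 10.3%, and the kappaB motif (GGGA and CC with any 4 bases between them) in 26.6%, 26.5% and 26.4%, and none of these 3 is in the printed windows. Matches were counted for each motif on its own, and matches of different motifs can share bases.

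The machinery of bone resorption rose nearly as a whole. Of 19 tested effector genes 17 rose and 1 fell, with a median log2 fold change of 3.11, against 24.9% and 22.5% of all tested genes. Car2, carbonic anhydrase II, which supplies the protons, had 0.159 and 0 CPM with M-CSF and 158 and 171 CPM with RANKL (edgeR adjusted p = 2.0e-06). Slc4a2, the anion exchanger that returns bicarbonate to the blood side, rose from 136 and 123 to 1069.8 and 643 CPM. Clcn7, the chloride-proton exchanger of the ruffled border, and its partner Ostm1 rose by 2.82 and 0.98 on the log2 scale. Mmp14, a membrane collagenase, rose from 2.93 and 0.817 to 696 and 409.9 CPM, the sodium-proton exchanger gene Slc9b2 from 4.52 and 3.51 to 707 and 536 CPM, and Snx10, a sorting nexin needed for the ruffled border, from 102 and 95.7 to 797 and 915 CPM. Ckb, the brain-type creatine kinase, went from 834 and 852 to 7365 and 3378 CPM. Rab3d, a secretory GTPase, was the gene that fell, from 72.8 and 80.8 to 37.1 and 37.2 CPM (edgeR adjusted p = 0.00035), and Rab7 did not pass.

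The V-ATPase is the proton pump itself, built of a membrane V0 part and a cytosolic V1 part, with several subunits encoded as alternative isoforms. Of 18 tested subunit and accessory genes 16 rose and 1 fell (median log2 fold change 1.73). Atp6v0d2, the d isoform that osteoclasts induce, rose from 7.53 and 5.64 to 1931 and 1535 CPM (log2 fold change 8.04, edgeR adjusted p = 5.2e-06), whereas the common Atp6v0d1 rose by 0.74. Tcirg1, the a3 isoform of the ruffled border, rose from 438 and 399.8 to 2256 and 1565 CPM (edgeR adjusted p = 0.00011). Atp6v0a1, the a1 isoform, was the subunit that fell, from 294 and 255 to 60.2 and 55.6 CPM (log2 fold change -2.25, edgeR adjusted p = 2.4e-05). The V1 subunit genes Atp6v1b2 and Atp6v1d rose by 2.68 and 2.85. All 18 were higher in RANKL replicate 1 than in replicate 2, against 51.0% of all tested genes.

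Osteoclasts become multinucleated by fusing, which depends on DC-STAMP, OC-STAMP and several surface proteins. Of 17 fusion genes 10 rose and 2 fell. Ocstamp rose from 0.317 and 0.327 to 328 and 312 CPM (edgeR adjusted p = 2.0e-06) and Dcstamp from 2.93 and 2.37 to 652 and 423 CPM (edgeR adjusted p = 8.9e-06). Cd200, Src and Tm4sf19 rose by 8.74, 8.33 and 7.19 on the log2 scale. Adam8, a metalloprotease listed for its part in fusion, was by contrast lower, from 4064 and 3489 to 540.3 and 528 CPM, and so was the tetraspanin gene Cd81, from 187 and 196 to 38.9 and 51.2 CPM.

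Genes of podosomes and the actin ring were divided. Of 45 tested genes 18 rose and 12 fell, with a median of 0.35. The kinase gene Src rose from 1.59 and 1.31 to 571 and 366 CPM, the unconventional myosin gene Myo1d from 2.696 and 4.41 to 699 and 485 CPM and Dock5, an activator of Rac, from 43.7 and 45.3 to 597 and 484 CPM. Itgb5, the beta5 integrin that pairs with the same alpha subunit as Itgb3, went the opposite way to it, from 516 and 556 to 82.2 and 69.0 CPM (log2 fold change -2.83, edgeR adjusted p = 1.1e-05), while that alpha subunit, Itgav, rose by 1.31. Rac2, a GTPase of blood cells, rose by 2.11.

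Transcription factors that drive the lineage mostly rose and those that hold it back mostly fell. Of 21 tested drivers 13 rose and 4 fell. Jdp2, an AP-1 partner, rose from 15.1 and 16.9 to 663 and 722 CPM (log2 fold change 5.44, edgeR adjusted p = 2.0e-06), and Fosl2, a FOS relative, from 60.5 and 57.5 to 812 and 739 CPM (edgeR adjusted p = 2.0e-06). Fosl1, another FOS relative, fell from 10.2 and 7.52 to 0 and 1.38 CPM (edgeR adjusted p = 0.015, and 0.069 without M-CSF replicate 1). Prdm1, which encodes Blimp1, a repressor of the brakes, rose by 4.18, and Ppargc1b, a coactivator of mitochondrial genes, by 4.25. Of the MITF family, Tfec rose by 1.47 and Tfe3 fell by 0.67. Nfatc2 fell by 1.59, against the rise of Nfatc1.

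Of 16 tested brakes 14 fell, none rose, and the remaining 2 did not pass (median log2 fold change -1.91). Id1, an inhibitor of helix-loop-helix factors, fell from 131 and 123 to 3.71 and 2.76 CPM (log2 fold change -5.32, edgeR adjusted p = 5.2e-06). Irf8, an interferon regulatory factor that restrains NFATc1, fell from 159.7 and 184 to 11.5 and 11.6 CPM (log2 fold change -3.89, edgeR adjusted p = 1.0e-05). Bcl6, a further repressor of the lineage, fell from 96.2 and 94.5 to 28.5 and 25.8 CPM. Maf and Cebpa fell by 2.66 and 2.82 on the log2 scale.

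Genes of RANK signalling and NF-kappaB rose more often than they fell. Of 27 tested genes 15 rose and 2 fell. Traf1, an adaptor, rose from 2.77 and 2.21 to 198 and 211 CPM (log2 fold change 6.35, edgeR adjusted p = 3.6e-06). The ubiquitin ligase gene Birc3 rose by 2.76, the inhibitor genes Nfkbia and Nfkbie by 2.03 and 2.56, and Nfkb2 and Relb, the subunits of the noncanonical pathway, by 2.31 and 2.12. Rela and Nfkb1, the subunits of the canonical pathway, did not pass (log2 fold changes 0.13 and 0.16). The TNF receptor genes Tnfrsf1a and Tnfrsf1b were those that fell.

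ITAM co-stimulation was divided, with 7 of 25 tested genes higher (28%) and 11 lower (44%), against 24.9% and 22.5% of all tested genes. The paired receptor gene Pira2 rose from 8.25 and 7.36 to 49.8 and 61.5 CPM and Siglec15 from 0.0793 and 0 to 54.3 and 30.8 CPM. Trem2, a receptor that pairs with DAP12, fell from 588 and 705 to 83.2 and 114 CPM (log2 fold change -2.71, edgeR adjusted p = 5.4e-05), and Fcer1g, the other common ITAM adaptor, fell by 1.19. Tyrobp, which encodes DAP12, did not pass, with 823 and 897 CPM before and 823 and 735 CPM after RANKL. Among 24 genes of calcium and calcineurin signalling 5 rose and 6 fell, shares close to those over all genes. The store-operated channel genes Orai2 and Orai1 changed in opposite directions, by 1.82 and -1.31, and Rcan1, a calcineurin regulator and known NFAT target, rose by 1.89.

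Several abundant cathepsin genes fell while Ctsk rose. Of 15 tested cathepsins, cystatins and legumain 7 rose and 8 fell. Ctsb fell from 10749 and 13296 to 5169.8 and 3241 CPM, Ctsd from 4646 and 5482 to 1825 and 1334 CPM, and Ctsl from 3247 and 2781 to 602 and 775 CPM (edgeR adjusted p = 0.0046, 0.00042 and 0.00011). Ctss, Ctsc and Ctsh fell by 1.48, 2.54 and 1.795 on the log2 scale, and the legumain gene Lgmn by 2.14. Ctsz rose by 0.73, and the cystatin genes Cstb, Cst3 and Cst7 rose by 1.38, 0.91 and 3.17.

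Genes of metalloproteinases and the urokinase system mostly fell, with Mmp9 and Mmp14 among the exceptions. Of 17 genes 5 rose and 11 fell. Plau, the urokinase gene, fell from 1364 and 2002 to 118 and 59.0 CPM (log2 fold change -4.25, edgeR adjusted p = 0.00018), and its receptor gene Plaur by 2.66. Adam15 fell from 838 and 827 to 106 and 119.6 CPM and Mmp12, the macrophage elastase, from 130.4 and 90.4 to 18.1 and 10.6 CPM. Lysosomal hydrolase and membrane genes were divided, with 13 of 35 higher (37.1%) and 8 lower (22.9%), against 24.9% and 22.5% of all tested genes. Arsb, the arylsulfatase that removes sulfate from dermatan and chondroitin chains, rose from 72.4 and 106 to 2039.5 and 989 CPM (log2 fold change 4.09, edgeR adjusted p = 0.00035), and Smpd1, acid sphingomyelinase, by 2.39. Lipa, the acid lipase of lysosomes, and the membrane protein gene Lamp1 fell by 1.74 and 1.38. Of the 35, 30 were higher in RANKL replicate 1 than in replicate 2.

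**Figure D3:**
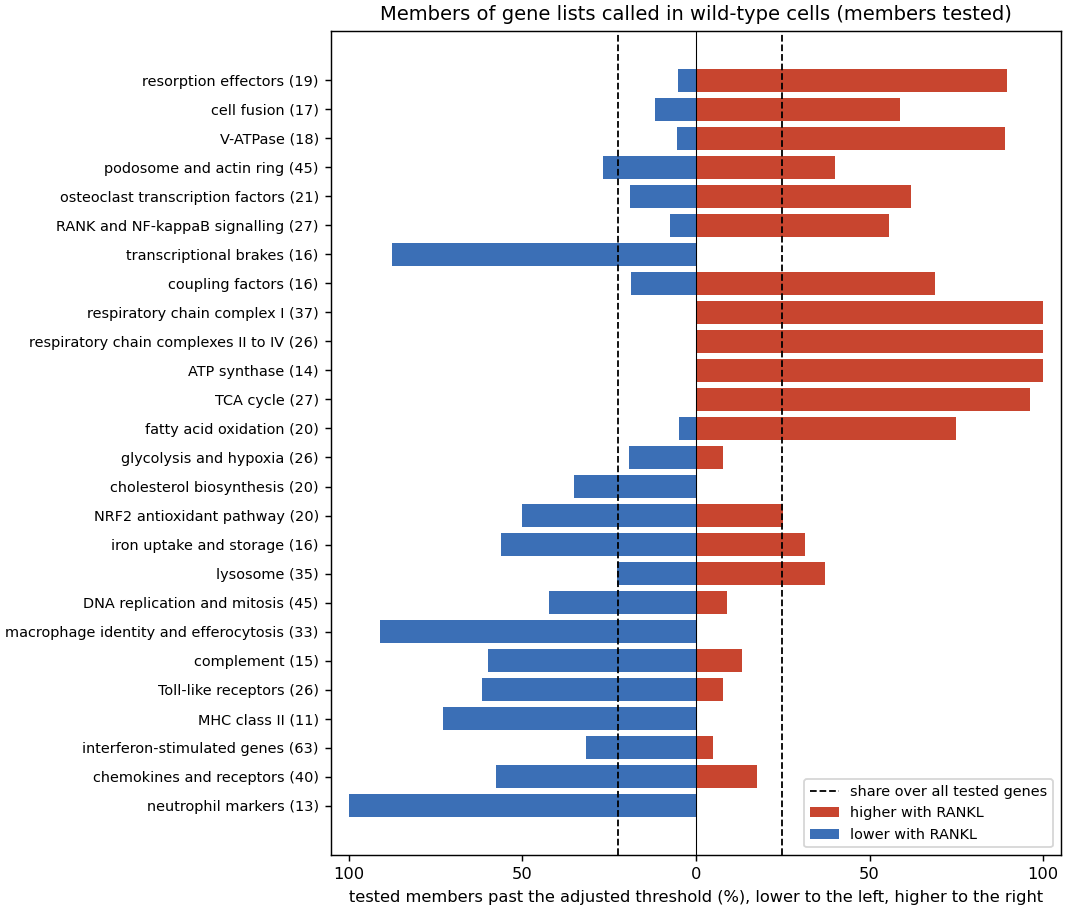
Share of the tested members of 26 gene lists called higher (red, to the right) or lower (blue, to the left) at an adjusted p under 0.05, in percent, with the number of tested members in parentheses. The dashed lines mark the shares over all tested genes, 24.9% higher and 22.5% lower. All members of the respiratory chain lists are higher, and nearly all brakes and macrophage identity genes are lower.

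Osteoclasts are rich in mitochondria, and the tested nuclear genes of the respiratory chain all rose. All 37 tested genes of respiratory complex I rose (median log2 fold change 1.01), all 26 of complexes II to IV (1.37), and all 14 of the ATP synthase (1.20). The changes were modest, between 0.50 and 1.79 for complex I. Ndufv1, a subunit of the NADH-oxidising arm, rose from 63.3 and 71.0 to 249 and 216 CPM (log2 fold change 1.79, edgeR adjusted p = 3.8e-05). Uqcrc2 of complex III rose from 122 and 135 to 552 and 499 CPM (log2 fold change 2.03, edgeR adjusted p = 1.5e-05). Atp5b, the beta subunit of the ATP synthase, rose from 874 and 935 to 2761 and 2416 CPM (log2 fold change 1.52, edgeR adjusted p = 5.8e-05). In all 77 of these genes both RANKL libraries were above both M-CSF libraries. Over all tested genes, 75.3% did not overlap between the groups in either direction. Genes of the mitochondrial genome were not among the tested genes.

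The TCA cycle followed, with 26 of 27 genes higher and none lower (median 1.59). Mdh2, malate dehydrogenase, rose from 269.7 and 287 to 1277 and 1065 CPM. Pdhb of the pyruvate dehydrogenase complex rose by 2.38, and Idh1, the cytosolic isocitrate dehydrogenase, was the gene that did not pass (-0.15). Of 20 genes of fatty acid oxidation 15 rose and 1, Cpt1a, the gate of fatty acid entry, fell (185 and 171 to 89.5 and 112 CPM, edgeR adjusted p = 0.0059). Acaa2, the thiolase of the last step, rose by 2.73. Mitochondrial ribosomal protein genes rose less, 40 of 77 with a median of 0.45, and 24 without M-CSF replicate 1.

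Glycolysis and hypoxia genes varied between the libraries of a group, as for Bnip3, Slc16a3 and Ldha. Of 26 genes 2 rose and 5 fell, below the shares over all genes. Bnip3, a mitophagy gene induced by low oxygen, had 20.9 and 50.02 CPM with M-CSF and 178 and 41.7 CPM with RANKL (edgeR adjusted p = 0.17). Slc16a3, the lactate exporter, had 29.6 and 116 CPM with M-CSF and 126 and 33.7 CPM with RANKL. Ldha, lactate dehydrogenase A, had 615 and 1417 CPM with M-CSF and 1491 and 1029.9 CPM with RANKL. For each of these 3 genes the high libraries were M-CSF replicate 2 and RANKL replicate 1, and the groups overlapped. Of the 26 genes 23 were higher in RANKL replicate 1 than in RANKL replicate 2, while 6 were higher in M-CSF replicate 1 than in M-CSF replicate 2. The genes that passed included Hk3, the myeloid hexokinase, which fell from 467 and 439 to 99.3 and 122 CPM, the glucose transporter gene Slc2a3, which fell by 3.03, and Pdk1, which restrains pyruvate dehydrogenase and rose by 1.69. The pentose phosphate and NADPH oxidase genes fell more often, 7 of 13 against 1 higher. G6pdx, the entry enzyme, fell from 572 and 415 to 134 and 151 CPM, and the oxidase subunit genes Ncf1 and Cybb by 2.21 and 1.61.

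**Figure D4:**
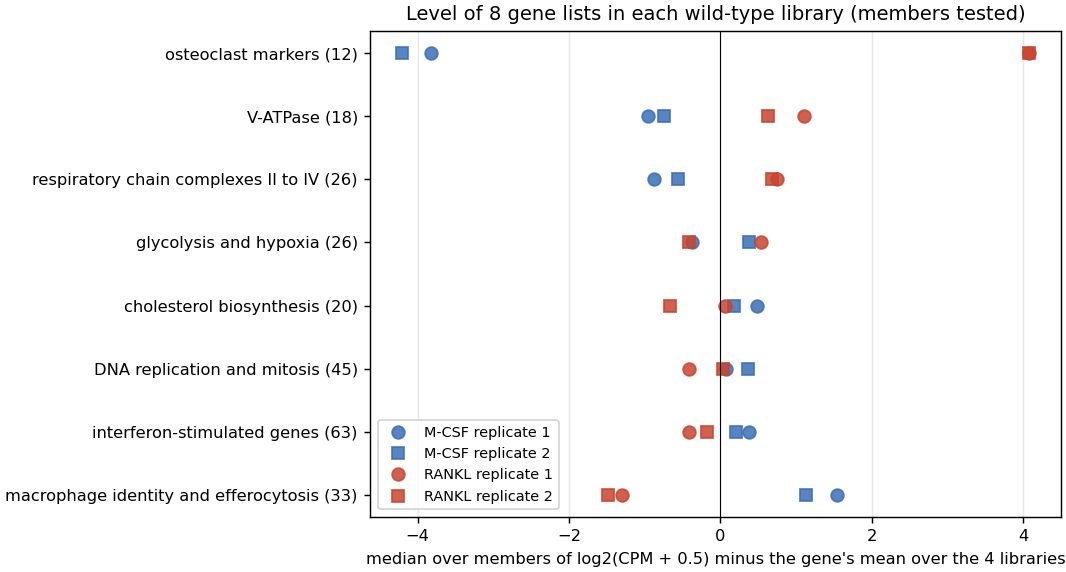
Median over the tested members of 8 gene lists of log2(CPM + 0.5) minus the gene's mean over the 4 WT libraries, with M-CSF in blue, RANKL in red, circles for replicate 1 and squares for replicate 2. Osteoclast markers, the proton pump, the respiratory chain and macrophage genes separate by treatment, whereas glycolysis and hypoxia genes are high in M-CSF replicate 2 (0.37) and RANKL replicate 1 (0.53) and low in the other 2 libraries.

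NRF2 target genes, which protect macrophages from oxidants, were lowered in part. Of 20 tested genes 5 rose and 10 fell. Hmox1, heme oxygenase 1, fell from 2878 and 3222 to 124 and 104 CPM (log2 fold change -4.75, edgeR adjusted p = 8.1e-06). Gclm and Gclc, the subunits of the enzyme that starts glutathione synthesis, fell by 3.07 and 1.92, and Prdx1, a peroxiredoxin, from 2910.5 and 2515 to 609.9 and 643 CPM. Sod2, the mitochondrial superoxide dismutase, and Gss, glutathione synthetase, rose by 1.06 and 1.31. Iron genes changed in both directions, with 5 of 16 higher and 9 lower. The ferritin genes Fth1 and Ftl1 fell from 13231 and 13738 to 2439.5 and 2686 CPM and from 14868 and 15800.4 to 5465 and 4640.2 CPM, and the iron exporter gene Slc40a1 by 3.15. The reads of Ftl1 and Fth1 may be shared with their pseudogenes. Tfrc, the transferrin receptor that takes up iron, rose from 613 and 468 to 4239 and 988 CPM (edgeR adjusted p = 0.037), and Ncoa4, which leads ferritin to the lysosome, from 43.6 and 37.1 to 209.8 and 204 CPM. The RANKL libraries of Tfrc differed widely, and its edgeR adjusted p was 0.33 without RANKL replicate 1 and 0.12 or 0.17 without M-CSF replicate 1 or 2.

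Sterol synthesis, which SREBP2 drives, was lower in some steps. Of 20 genes of cholesterol biosynthesis none rose and 7 fell (median -0.63), against 22.5% of all tested genes. Sqle, squalene epoxidase, fell from 177 and 140.0 to 79.0 and 37.0 CPM (log2 fold change -1.46, edgeR adjusted p = 0.02). Hsd17b7 and Tm7sf2, of the later steps, fell by 1.62 and 1.42. Hmgcs1, a synthase of the early steps, did not pass, at 139 and 99.96 CPM before and 188 and 95.5 CPM after RANKL (log2 fold change 0.24, edgeR adjusted p = 0.61). All 20 genes were higher in RANKL replicate 1 than in RANKL replicate 2. Without M-CSF replicate 1 or RANKL replicate 2 the count of lower genes was 4, and the edgeR adjusted p of Sqle was 0.096 and 0.082. Srebf2, which encodes SREBP2, had 298 and 259.9 CPM with M-CSF and 276 and 211 CPM with RANKL. Scap, the escort of SREBP2, had 58.7 and 65.2 CPM with M-CSF and 47.9 and 53.1 CPM with RANKL, and neither gene passed (log2 fold changes -0.20 and -0.29). With the replicate number as a block the edgeR adjusted p of Scap was 0.049.

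Lipid handling beside synthesis changed at single genes. Apoe, the main apolipoprotein of macrophages, fell from 3003 and 3071 to 334 and 175 CPM (log2 fold change -3.58, edgeR adjusted p = 0.00015), and Lrp1, a receptor for it, from 5208 and 3861 to 1344 and 808 CPM. Abcg1, a sterol exporter, rose from 6.34 and 6.54 to 131 and 116 CPM (log2 fold change 4.26, edgeR adjusted p = 2.3e-05), and Nr1h3, which encodes LXR alpha, from 9.83 and 5.64 to 29.8 and 28.0 CPM. Of 12 genes of the LXR list 4 rose and 5 fell. The desaturase genes Fads2 and Fads1 fell by 4.502 and 2.54 on the log2 scale, and of 17 fatty acid synthesis genes 2 rose and 5 fell.

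Macrophage identity genes fell nearly throughout. Of 33 tested genes of identity and efferocytosis 30 fell and none rose (median log2 fold change -2.64). Cd36, a scavenger receptor for oxidised lipids, fell from 2559.6 and 2456 to 65.0 and 103 CPM (log2 fold change -4.89, edgeR adjusted p = 1.2e-05). Mpeg1, the pore-forming perforin-2 of macrophages, fell from 2704 and 2597 to 461 and 528 CPM (edgeR adjusted p = 1.9e-05). The chemokine receptor genes Ccr2 and Cx3cr1 fell by 3.85 and 3.92, and Stab1, a scavenger receptor, by 3.60. Axl, a receptor for dying cells, fell from 54.9 and 47.2 to 2.43 and 3.75 CPM.

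Complement and pattern recognition were lowered with it. Of 15 complement genes 9 fell and 2 rose. The genes of the C1q chains, C1qa, C1qb and C1qc, fell by 3.82, 3.85 and 3.72, and C5ar1, the receptor for the fragment C5a, fell from 1227 and 1123 to 95.7 and 105.3 CPM. C3, the central component, rose from 28.3 and 35.7 to 88.3 and 112 CPM (edgeR adjusted p = 0.00062). Of 26 genes of Toll-like receptors and their adaptors 16 fell and 2 rose, and Tlr13, a sensor of bacterial ribosomal RNA, fell from 631 and 568 to 49.2 and 54.3 CPM. Of 7 Fc receptor genes 4 fell and none rose, with Fcgr3 falling from 398 and 379 to 53.7 and 41.7 CPM. Of 11 MHC class II genes 8 fell, among them Cd74, the invariant chain, from 130.4 and 156 to 43.3 and 54.1 CPM (log2 fold change -1.55, edgeR adjusted p = 0.00092). MHC class I genes mostly did not pass, with 1 of 19 higher and 4 lower.

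Interferon-stimulated genes fell more often than they rose, and most did not pass. Of 63 tested genes 20 fell (31.7%) and 3 rose (4.76%), against 22.5% and 24.9% of all tested genes. The median log2 fold change was -0.60, and fewer genes were called lower without RANKL replicate 1. Bst2, which tethers virus particles, fell from 251 and 296 to 67.2 and 75.3 CPM (log2 fold change -1.94, edgeR adjusted p = 8.2e-05), and Sp110, a nuclear body protein, from 60.3 and 58.1 to 10.2 and 14.4 CPM. Ifitm2, Cxcl10 and Ly6e were the 3 that rose, and Ly6e went from 261 and 278 to 429 and 497 CPM (edgeR adjusted p = 0.027). Without M-CSF replicate 1, M-CSF replicate 2 or RANKL replicate 2 Ly6e did not pass (log2 fold changes 0.74, 0.83 and 0.67). Irf7 had 80.8 and 61.5 CPM with M-CSF and 55.1 and 43.3 CPM with RANKL and did not pass (log2 fold change -0.54, edgeR adjusted p = 0.19), although the groups did not overlap. Its edgeR adjusted p was 0.048 in a fit of the 4 WT libraries alone and 0.039 with the replicate number as a block. Some guanylate-binding protein genes rose. Gbp7 went from 2.93 and 2.29 to 35.3 and 29.3 CPM, and Gbp5 from 1.11 and 0.49 to 5.11 and 4.44 CPM. Both were near or below the filter level of 2.83 CPM with M-CSF, so these rises are given as a description. Of the 14 tested genes of their list (of 19 listed) 5 rose, all of them Gbp genes, and 3 fell. Over all tested genes the shares were 24.9% and 22.5%.

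Chemokines, cytokines and their receptors were largely lowered, with 23 of 40 genes lower and 7 higher. Ccl2, the monocyte attractant, fell from 434 and 400.1 to 12.8 and 15.8 CPM (log2 fold change -4.86, edgeR adjusted p = 6.7e-06). Ccr1 was a receptor that rose, from 46.1 and 38.1 to 432 and 395 CPM (log2 fold change 3.30, edgeR adjusted p = 7.5e-06). Tnf fell by 1.83 and Il1rn, the interleukin-1 receptor antagonist, rose by 2.62. Of 21 factors by which osteoclasts act on bone-forming cells 16 were tested. Of these 11 rose and 3 fell, against 24.9% and 22.5% of all tested genes. Sphk1, which makes sphingosine 1-phosphate, rose from 0.159 and 0.0817 to 33.1 and 16.2 CPM. Bmp2 rose from 0.317 and 0.49 to 9.46 and 10.2 CPM and Efnb2 from 0.317 and 0.245 to 12.3 and 13.01 CPM. With M-CSF these 3 genes lay below the filter level of 2.83 CPM, so their rises are given as a description. Igf1 was by contrast lowered from 751 and 707 to 31.7 and 27.1 CPM (log2 fold change -4.64, edgeR adjusted p = 4.4e-06). Of the semaphorin list Sema4d, which restrains osteoblasts, rose by 1.99, Plxna4 rose from 3.96 and 6.13 to 198 and 154 CPM, and Nrp1, a receptor of the family, fell from 396 and 309 to 29.4 and 26.9 CPM. Of 14 Notch genes 8 fell and 2 rose, with Notch1 falling from 96.6 and 52.6 to 9.33 and 6.43 CPM.

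Cell cycle genes fell more often than they rose. Of 45 tested genes 19 fell and 4 rose. Ccnd1, the D-type cyclin that M-CSF induces, fell from 1286 and 1363 to 182 and 215 CPM (log2 fold change -2.74, edgeR adjusted p = 1.8e-05), and Pcna, the sliding clamp, from 582 and 709 to 127 and 168 CPM (edgeR adjusted p = 9.6e-05). The replicative helicase genes Mcm2 to Mcm7 fell by 0.82 to 1.40 on the log2 scale, of which Mcm6 did not pass without M-CSF replicate 2 (edgeR adjusted p = 0.057) and Mcm7 without M-CSF replicate 2 or RANKL replicate 1 (edgeR adjusted p = 0.068 and 0.07). Cdkn1b, an inhibitor of the cycle, rose by 1.39 and Cdkn1a, another, fell by 1.78. Mki67, a proliferation marker, did not pass, with 353 and 388 CPM before and 250.4 and 361 CPM after RANKL (edgeR adjusted p = 0.25, and 0.036 without RANKL replicate 2), and the mitotic genes Cdc20, Ccnb2 and Cenpa rose. Without M-CSF replicate 1 or without RANKL replicate 2 these 3 did not pass, and the list held fewer higher genes. In a fit of the 4 WT libraries alone Ccnb2 and Cdc20 did not pass (edgeR adjusted p = 0.059 and 0.082). Cenpa did not pass with upper quartile factors (edgeR adjusted p = 0.053) or without RANKL replicate 1. Survival genes changed in both directions, 7 of 14 higher and 6 lower. Bcl2l1, which encodes BCL-XL, fell from 192 and 209.9 to 26.3 and 20.2 CPM (log2 fold change -3.12, edgeR adjusted p = 7.6e-06), and Mcl1 rose from 287 and 306 to 707 and 652 CPM (edgeR adjusted p = 0.00012). The death gene Bmf rose from 5.15 and 5.80 to 40.8 and 61.1 CPM.

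Protein production changed less. Of 80 tested cytosolic ribosomal protein genes 16 rose and none fell, a share under that of all genes, with a median log2 fold change of 0.26. The count of 16 was 3 without M-CSF replicate 1 or without RANKL replicate 2. Proteasome subunit genes changed in 9 of 41 cases, 3 higher and 6 lower. Of 27 genes of tRNA charging and the amino acid response 9 rose and 3 fell, and leaving out any of 3 libraries (either M-CSF library or RANKL replicate 1) left 3 higher. Of 23 genes of the endoplasmic reticulum 11 fell and 5 rose, with the chaperone gene Hsp90b1 falling by 0.69. Of 185 solute carrier genes, which encode transporters, 50 rose (27.0%) and 49 fell (26.5%), shares close to those over all genes.

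A few genes came to take up a large part of the libraries. Mmp9 took 2.02% and 1.41% of all counts in the RANKL libraries, Ctsk 1.79% and 0.763%, and Acp5 1.20% and 0.855%, against under 0.004% for each in the M-CSF libraries. The 10 genes with the most counts in RANKL cells took 8.89% and 6.65% of the counts there, and besides these 3 they were Eef1a1, Vim, Ckb, Ftl1, Actb, Gm42418 and Ctsb. In M-CSF cells the 10 leading genes took 10.3% and 10.1% of the counts. They were Lyz2, Ftl1, Fth1, Ctsb, Actb, Tmsb4x, Eef1a1, Psap, Ctsd and Lrp1, and they took 3.69% and 3.70% of the counts with RANKL.

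Markers of other bone marrow cells were looked at because the cultures start from the non-adherent cells of marrow. Of 13 neutrophil genes tested (of 14 listed) all fell, and limma-voom called 8 of them. Most of these genes lay below the filter level in the RANKL libraries and were kept through M-CSF libraries, so the count is given as a description. Their summed level over the list was 372 and 706 CPM with M-CSF and 12.3 and 14.1 CPM with RANKL. S100a9, a calcium-binding protein of neutrophils, had 107 and 211 CPM with M-CSF and 1.41 and 1.68 CPM with RANKL, with the highest level in M-CSF replicate 2. Of 8 listed B cell genes 5 were tested and all fell, which is likewise given as a description because of the filter. Summed levels over the list were 57.004 and 73.7 CPM with M-CSF and 5.37 and 7.81 CPM with RANKL. Igkc, an immunoglobulin light chain gene, was at 0 in both RANKL libraries. No gene of the T and NK cell list was tested. The platelet chemokine gene Pf4 fell from 372 and 328 to 13.04 and 16.3 CPM, and it is also made by macrophages. The part of these cells in the falls of other genes was not tested.

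The second set of control cells, LysM-Cre BMMs of another experiment, gave the same direction of change for most genes that WT cells called. The 2 sets share no library. Over the 10598 genes of both tables the log2 fold changes correlated at 0.926, a description over genes that are not independent. Of 2621 genes higher in WT cells, 98.2% were above 0 in LysM-Cre cells and 2350 were called there (89.7%, against 30.0% of all genes in the joint fit of 16 libraries). Of 2391 lower genes, 97.5% were below 0 and 1966 were called (82.2%, against 29.6%). In 16 genes the calls were opposite. Lyz2, the gene whose promoter drives Cre, stood at 18.5 to 38.7 CPM in the 4 LysM-Cre libraries, against 27221 and 19867 CPM in the WT M-CSF libraries and 3818 and 3726 CPM in the WT RANKL libraries. Differences between the sets combine experiment, Cre gene and mice, which cannot be told apart.

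The difference of the responses passed the test for 367 genes (3.46%), 181 (1.71%) with the higher and 186 (1.76%) with the lower response in WT cells. Without RANKL replicate 2, M-CSF replicate 1 or M-CSF replicate 2 of the WT cells the count was 55, 58 or 128. Among genes with the more negative response in WT cells, the smallest p values of the difference were those of C1qb, Selenop, Mgst1, Igf1 and Fcgr3. C1qb fell in WT cells from 2197 and 2464 to 169 and 155 CPM, and in LysM-Cre cells from 1859 and 1806 to 586 and 539.9 CPM. The difference of the log2 fold changes was -2.14 (standard error 0.15, edgeR adjusted p = 7.4e-05). Selenop, a selenium carrier, fell in WT cells from 625 and 584 to 108 and 106 CPM, while LysM-Cre cells had 481 and 454 CPM before and 515 and 561 CPM after RANKL (difference -2.70, edgeR adjusted p = 0.0001). Mgst1, a glutathione transferase, Igf1 and Fcgr3 had the more negative response in WT cells as well, with differences of -2.46, -2.58 and -2.05. Of the 33 macrophage identity genes 9 differed. In the joint fit 21 of them fell in LysM-Cre cells, against 30 in WT cells in the fit of the 8 libraries of the IRF7 experiment. Counts from different fits are not strictly alike. Of the 10 macrophage markers 5 differed. Among them was Lyz2, which in LysM-Cre cells was at only 21.5 and 30.7 CPM before RANKL, so its difference is not one of a fall from a like level. None of the 12 osteoclast markers, the 19 resorption effectors or the 18 V-ATPase genes differed.

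The gene with the smallest p on the higher side was Espl1. Espl1, the separase that splits sister chromatids, had 42.2 and 44.5 CPM with M-CSF and 75.8 and 78.5 CPM with RANKL in WT cells, and 72.2 and 73.7 CPM with M-CSF and 54.0 and 53.9 CPM with RANKL in LysM-Cre cells (difference 1.27, edgeR adjusted p = 0.00074). Psat1, of serine synthesis, fell in both sets, from 93.0 and 92.0 to 50.2 and 64.7 CPM in WT cells and from 117 and 120.1 to 15.6 and 20.2 CPM in LysM-Cre cells (difference 2.04, edgeR adjusted p = 0.00092). The nuclear lamina gene Tmpo had a difference of 1.12, the gap junction gene Gja1 of 3.05 and the interferon-induced Ifitm1 of 4.67. Of the 45 genes of replication and mitosis, 41 fell in LysM-Cre cells in the joint fit (median log2 fold change -1.97). In WT cells 19 fell in the fit of 8 libraries (-0.35), so these 2 counts come from different fits. For 11 the difference itself passed in the joint fit. All 77 genes of the respiratory chain and the ATP synthase rose in both sets, and none differed.

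**Figure D5:**
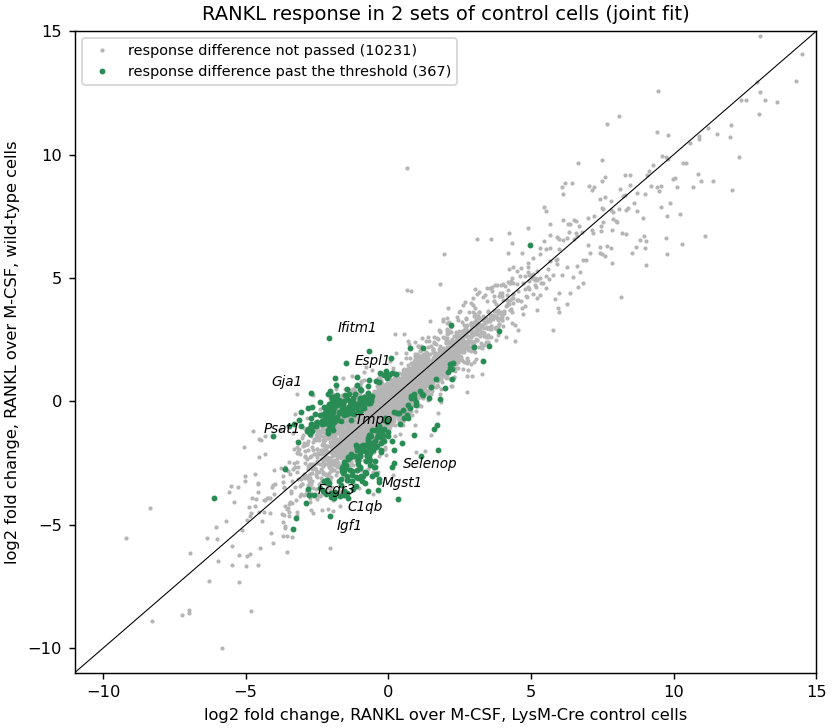
Log2 fold change of RANKL over M-CSF in WT cells against that in LysM-Cre control cells, from the joint fit, for each of the 10598 genes of both tables, with the line of equal response. The 367 genes whose responses differ by the test are green and the 10 named in the text are labelled. Most of them lie below 0 on both axes, and genes such as Ctsk with the largest rises lie near the line without passing the test.

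Against IRF7-deficient cells of the same experiment no gene differed in its response at an adjusted p under 0.05 by edgeR, DESeq2 or limma-voom, and 121 genes (1.12%) had an unadjusted p under 0.05 in edgeR. That number was 78 by the DESeq2 Wald test, 119 by limma-voom, 246 with the replicate number as a block and 218 without WT RANKL replicate 1, and no gene passed the adjusted threshold in any of these fits. For Ctsk the difference of the log2 fold changes was -0.60 with a standard error of 1.00, and for Nfatc1 -0.11 with 0.38. Of 63 interferon-stimulated genes 36 fell and 1 rose in IRF7-deficient cells (median -1.23), against 20 and 3 in WT cells (-0.60). Replicate differences correlated between the genotypes, at 0.72 for RANKL and 0.47 for M-CSF libraries. No fit gave each treatment its own replicate effect, so the lack of calls does not show that the responses are equal.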

How the data were processed

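Libraries were TruSeq stranded mRNA. Tools listed in the submitters' processing notes are STAR 2.7.3a, bcl2fastq 1.8.4, fastp and edgeR, with genome build mm10. Sources used here name neither the counting tool nor the annotation. The authors deposited raw counts per gene for all 22001 genes and for the 10788 they kept, and also log2 CPM, which were not used.

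WT RANKL was compared with WT M-CSF in edgeR 4.0.16 (R 4.3.3) on the counts: TMM factors, robust quasi-likelihood fit of the 8 libraries of the IRF7 experiment in 4 groups, library sizes from all genes, no block, Benjamini-Hochberg over all 10788 genes, and a threshold of 0.05. The standard error is the log2 fold change divided by the root of F. LysM-Cre cells entered a joint fit of all 16 libraries over 10598 genes. Where replicates of WT cells were compared, they differed by more than counting noise (chi-square per degree of freedom 18.8 with M-CSF and 31.8 with RANKL). The code was tested on simulated data.

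Alternatives were DESeq2's (1.42.0), upper quartile and no size factors, no filter or filterByExpr, the 4 WT libraries alone, the likelihood ratio test, DESeq2's Wald test, limma-voom (limma 3.58.1), a replicate block, and leaving out each library.

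Named genes were the 15 largest changes in each direction with a mean of at least 10 CPM in the higher group and no overlap of libraries, leaving out clone and predicted gene names, members of the gene lists with the smallest p, all markers, genes the study measured, the 10 genes with the most counts, the 5 strongest response differences in each direction, and switched genes. Other list members were named for their roles after their values were seen. The members and lists were chosen with earlier results of these data known. Reads shared with near-identical copies (Ftl1, Fth1, Ctla2a, Ly6 and Gbp genes) could be split by the counting. Promoters are RefSeq windows on GRCm38.p6, matched by symbol for 8558 of the tested genes. A few genes are not reported here.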

Additional observations from a re-analysis of the deposited data

Results flagged for a closer look

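For 44 genes named above the RANKL response differed between WT and LysM-Cre control cells by the test of the difference itself in the joint fit of 16 libraries. The values are log2 fold changes of WT cells minus those of LysM-Cre cells, each past an edgeR adjusted p of 0.05. Experiment, Cre gene and mice differ together between the sets and cannot be told apart.

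Many genes of macrophages had the more negative response in WT cells. Among receptors and surface proteins the differences were -1.43 for Adgre1, -0.73 for Csf1r, -1.83 for Fcgr1, -2.05 for Fcgr3, -2.17 for Mertk, -1.23 for Trem2, -0.72 for C5ar1, -1.12 for Tlr13, -1.36 for Nrp1, -1.18 for Itgb5 and -1.62 for Mpeg1. The C1q chain genes C1qa, C1qb and C1qc had -2.25, -2.14 and -2.26. The restraining factor genes Irf8, Maf and Cebpa had -1.89, -1.67 and -1.53. For secreted, lysosomal, oxidase and metabolic genes the differences were -3.22 for Apoe, -2.58 for Igf1, -2.70 for Selenop, -1.12 for Ctsd, -0.84 for Ctsh, -0.98 for Lipa, -1.44 for Cybb, -0.88 for Ncf1, -1.51 for Hmox1, -2.46 for Mgst1, -2.83 for Slc40a1, -0.96 for Bst2 and -0.81 for Tmsb4x. Lyz2, the gene whose promoter drives Cre in the second set, had -2.78, with 27221 and 19867 CPM before and 3818 and 3726 CPM after RANKL in WT cells, but only 21.5 and 30.7 CPM before and 18.5 and 38.7 CPM after RANKL in LysM-Cre cells. Tyrobp did not pass in WT cells and rose in LysM-Cre cells (-0.85). C3 rose in both sets and less in WT cells (-1.68).

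In the other direction, the differences of cell division genes were 1.27 for Espl1, 1.94 for Mki67, 1.43 for Mcm2, 1.53 for Mcm7, 0.89 for Ccnd1 and 1.12 for Tmpo. Those of other genes were 2.04 for Psat1, 3.05 for Gja1, 4.67 for Ifitm1, 1.37 for Traf1 and 2.21 for Cx3cr1, a macrophage gene that fell less in WT cells. Ifitm1 rose in WT cells, from 0.785 and 0.729 to 3.93 and 5.09 CPM, and fell in LysM-Cre cells, from 15.2 and 23.5 to 4.41 and 4.65 CPM. Without WT M-CSF replicate 1, 31 of the 44 differences did not pass, and without M-CSF replicate 2, RANKL replicate 1 or RANKL replicate 2 it was 22, 7 and 26 of them.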

How the results depend on the processing

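The 4 counts of called genes stayed within 1.5 times the reported ones in all 14 alternatives, and between 74.5% and 82.1% of the 5118 calls kept their direction and threshold without 1 library, against at least 91.7% otherwise. No call was made in the opposite direction. The count of genes whose response differed between WT and LysM-Cre cells was less firm: 367 became 674 by the DESeq2 Wald test and 55 to 448 without 1 WT library. Genes switched off numbered 13 at limits of 0.5 and 5 CPM. For the 233 single genes, 3205 of 3262 values kept direction and side of the threshold, 40 lost and 13 gained it. The 4 that changed sign belong to genes that had not passed: without 1 library Hmgcs1 ranged from -0.32 to 0.65, Ldha from -0.17 to 1.04, and Slc16a3 from -1.11 to 1.42, with -0.56 without M-CSF replicate 1. Of the 1540 counts of list members, 81 moved over 1.5 times. Interferon-stimulated genes that fell numbered 35 without the filter on low counts and 32 with the 4 WT libraries alone, cholesterol genes 12 without the filter, and neutrophil genes 8 by limma-voom. The causes of these shifts were not tested. Another scaling moved the median of all genes by less than 0.1 on the log2 scale.

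With the replicate number as a block, 3028 genes were higher and 2859 lower, cholesterol genes that fell numbered 12, and 682 genes differed in response between WT and LysM-Cre cells. The labels give no pairing by number. The replicate differences of the M-CSF and RANKL libraries of WT cells correlated at 0.17 over genes, with only 2 pairs. Over the 4 groups of that fit such correlations lay between 0.057 and 0.72, with 0.72 between WT and IRF7-deficient RANKL libraries and 0.47 between their M-CSF libraries.

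With 2 libraries a group and 1 count worth up to 0.128 CPM, a gene at 0 counts in a group allows only a bound on its fold change, and counts cover counting error only.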
